A study of Mus musculus with 18 samples.

Results

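The guanylate-binding proteins Gbp2, Gbp2b, Gbp3 and Gbp7, the interferon-induced transmembrane proteins Ifitm1, Ifitm2 and Ifitm3, and the interferon regulatory factors Irf1 and Irf7 were followed across 18 RNA sequencing samples of mouse embryonic stem (ES) cells grown in 3D culture. They are 9 of the 49671 genes in the deposited count table and were found by their Ensembl identifiers. The set was chosen by measured values of these data, namely the higher level of Gbp2 and Gbp2b in Esrrb null cells and the difference of Ifitm1 between DMSO and Fgf2/Activin. All 9 genes are therefore described without a test in the comparisons of Esrrb null with Esrrb floxed cells and of Fgf2/Activin with DMSO. The wild-type cells were E14 ES cells at passage 20, embedded in Matrigel for 48 h in N2B27 medium with the solvent DMSO, with 3 µM CHIR99021 (CH), with 3 µM CHIR99021 plus 0.4 µM PD0325901 (2i), or with 12 ng/ml Fgf2 plus 20 ng/ml Activin A (Fgf2/Activin). CHIR99021 blocks Gsk3 and thereby turns on Wnt/β-catenin signalling, and PD0325901 blocks Mek. The Esrrb fl/fl cells, at passage 25 and with a strain label that names Acr-EGFP transgenic mice, carried a tamoxifen-inducible Cre and spent 24 h in 3D culture with 3 µM CHIR99021, either after 1 day in 4OHT (Esrrb null) or without it (Esrrb floxed). Before 3D culture all cells had been kept in 2i and Lif. Each of the 6 groups had 3 samples. The control cells received no 4OHT, so loss of Esrrb cannot be told apart from 4OHT and Cre activity, and the wild-type CH cells differ from the Esrrb fl/fl cells in line, passage and culture time.

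Guanylate-binding proteins are large GTPases that cells make in response to interferon and that attack the membranes of bacteria and parasites inside the cell. Interferon-induced transmembrane proteins sit in the plasma and endosomal membranes and hinder the entry of enveloped viruses, and Ifitm1 and Ifitm3 are also known from early germ cells. Interferons bind receptors that signal through Jak kinases to transcription factors in the nucleus. Genes that respond to interferon-γ often carry the promoter sequence called GAS, and those that respond to type I interferon the interferon-stimulated response element (ISRE). Irf1 and Irf7 are transcription factors that bind ISRE-like sequences, Irf1 being itself a target of interferon-γ and Irf7 an amplifier of type I interferon production. ES cells are known to respond weakly to interferon.

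The 4 Gbp genes lie side by side on the plus strand of chromosome 3 in the order Gbp7, Gbp3, Gbp2b and Gbp2, from 142530342 to 142638008 on GRCm38. Ifitm2, Ifitm1, Ifitm3 and Irf7 lie on chromosome 7 between 140954837 and 141266481, and Irf1 on chromosome 11 from 53770014 to 53778374. All 9 are protein-coding genes in GENCODE. RefSeq promoter windows on GRCm38.p6, from 250 bases before to 50 bases after each start, were found for all 9 genes, with 11 windows in total because Gbp3 and Irf1 have another start each. They were searched on both strands for the ISRE-like letters GAAANNGAA and the GAS letters TTCNNNGAA. Stretches of 100 bases are shown for the 7 genes with a match because the shared letters let the members be compared with one another. The strand shown is that of the gene, and capitals mark the matches, which appear as the reverse complement where the ISRE-like letters lie on the opposite strand. The stretches are at chr3:142620559-142620658 (plus strand) for Gbp2, chr3:142594665-142594764 (plus strand) for Gbp2b, chr3:142559957-142560056 (plus strand) for Gbp3, chr3:142530211-142530310 (plus strand) for Gbp7, chr7:140955954-140956053 (minus strand) for Ifitm2, chr7:141010717-141010816 (minus strand) for Ifitm3 and chr11:53769878-53769977 (plus strand) for Irf1.
Gbp2: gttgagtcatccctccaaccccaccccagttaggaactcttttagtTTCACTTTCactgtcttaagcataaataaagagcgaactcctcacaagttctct
Gbp2b: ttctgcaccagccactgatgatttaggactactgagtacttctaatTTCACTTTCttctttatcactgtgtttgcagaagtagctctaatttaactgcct
Gbp3: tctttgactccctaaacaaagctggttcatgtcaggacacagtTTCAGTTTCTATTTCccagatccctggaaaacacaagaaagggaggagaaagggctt
Gbp7: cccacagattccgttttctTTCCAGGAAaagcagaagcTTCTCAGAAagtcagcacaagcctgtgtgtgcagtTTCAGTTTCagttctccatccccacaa
Ifitm2: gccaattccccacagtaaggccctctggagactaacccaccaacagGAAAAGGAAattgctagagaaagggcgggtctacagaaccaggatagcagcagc
Ifitm3: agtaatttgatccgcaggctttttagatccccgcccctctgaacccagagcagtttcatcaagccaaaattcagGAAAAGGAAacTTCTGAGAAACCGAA
Irf1: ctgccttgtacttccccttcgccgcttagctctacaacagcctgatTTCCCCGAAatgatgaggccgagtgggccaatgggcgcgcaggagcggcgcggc

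An ISRE-like match was found in the windows of 6 of the 9 genes (all 4 Gbp genes, Ifitm2 and Ifitm3). Of all 27025 genes with promoter windows of that length, 2638 held one, as did 8.56% of the 32851 windows. In the Gbp genes the matches lay upstream of the start, with their first base at -58 for Gbp2, -136 for Gbp2b and -52 for Gbp7, counting the start as 0, and the match of Ifitm2 began at -46. Gbp3 had a pair of overlapping matches that began at -44 and -38. In Ifitm3, by contrast, both ISRE-like matches lay past the start, at 2 and 19. GAS letters were found in 3 of the 9 genes, namely Gbp7 (at 2 places), Ifitm3 and Irf1. Of all 27025 genes 2582 held them, as did 8.3% of all windows. The GAS match of Ifitm3 overlapped its neighbouring ISRE-like match. Ifitm1 and Irf7 had neither sequence in this window. None of the 11 windows held the estrogen-related receptor letters AAGGTCA or the TCF/LEF letters CTTTGAT, which 4.72% and 3.73% of all windows held. These are matches of letters, and which start the cells used was not measured.

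**Figure D1:**
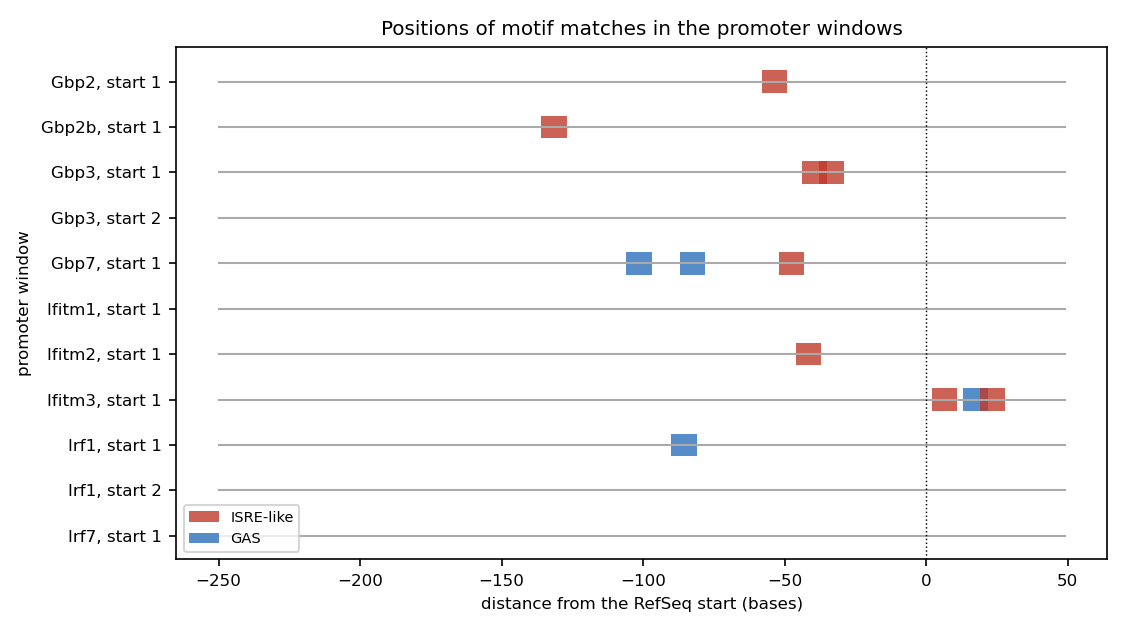
Positions of ISRE-like (red) and GAS (blue) matches in the 11 promoter windows of the 9 genes, plotted by distance from the RefSeq start in bases. The matches of the 4 Gbp genes lie between -136 and the start, those of Ifitm3 lie past it, and Ifitm1 and Irf7 have none.

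The sum of gene counts in a sample was 25388139 to 37158661 for wild-type cultures and 19915222 to 20140699 for Esrrb fl/fl cultures. Levels are given as CPM, the counts scaled to library size after TMM normalisation, with the SD over 3 samples. The labels number the samples of a group without saying that they came from separate cultures, so the p-values measure the spread between these samples. In every group replicate 1 stood apart, since its counts differed from those of replicates 2 and 3 by a chi-square per gene of 13.6 to 79.1, against 1.5 to 9.97 between replicates 2 and 3. Each result was therefore also computed without replicate 1. The main fits did not use the replicate number, which was fitted as a block in an alternative. Esrrb itself had 58.1, 62.7 and 58.7 CPM in the Esrrb null and 144, 111 and 110 CPM in the Esrrb floxed samples. It was lower in all null samples but far from 0, and these counts include reads of any exon outside the deleted part. In the wild-type cells Esrrb lay between 286 and 363 CPM in CH, between 530 and 566 in 2i, between 6.88 and 30.3 in DMSO and between 9.22 and 21.5 in Fgf2/Activin. All 10 ES cell identity genes were expressed in every group. The summed level of 10 leukocyte genes ranged from 25.1 to 30.7 CPM in Fgf2/Activin and 110 to 132 CPM in Esrrb null cells, against 112 to 124 CPM in 2i and 126 to 160 CPM in Esrrb floxed cells, and from 24.4 to 93.3 CPM in DMSO and CH. Laptm5 was the highest of them in every group, and Adgre1 had no counts in DMSO, CH or either Esrrb group, nor Ptprc in the Esrrb null cells. The summed level of 6 trophectoderm genes was highest in CH (73.5 to 120 CPM) and lowest in Fgf2/Activin (7.97 to 12.2), with 10.2 to 23.6 CPM in DMSO, 35.9 to 39.0 in 2i, 24.8 to 28.6 in Esrrb null and 18.8 to 21.3 in Esrrb floxed cells. All 6 had counts in every group. In CH, 3 of them averaged at least 1 CPM, and Cdx2 was the highest with a mean of 63.7 CPM. That of 7 primitive endoderm genes, which also all had counts, was 5.56 to 7.84 CPM in Esrrb null against 2.18 to 3.65 in floxed cells, 6.1 to 6.58 in Fgf2/Activin, 9.07 to 10.7 in DMSO, 3.32 to 4.26 in CH and 1.68 to 1.97 in 2i. These sums thus moved with the Gbp genes described next in some comparisons. Both lists were higher in CH than in 2i and in Esrrb null than in floxed cells. Trophectoderm genes were also higher in CH than in DMSO, and primitive endoderm genes higher in Fgf2/Activin than in 2i or CH. In other comparisons the sums moved against the Gbp genes. Trophectoderm genes were lower in Fgf2/Activin than in CH or 2i, while their ranges in Fgf2/Activin and DMSO overlapped. Primitive endoderm genes were lower in Fgf2/Activin and in CH than in DMSO. The part of such cells in the levels given here was not tested.

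Gbp2 was at its highest in Fgf2/Activin and in the Esrrb null cells. In Fgf2/Activin its samples had 43.0, 44.9 and 42.8 CPM, and in the Esrrb null cells 46.0, 54.4 and 55.0 CPM. It had 7.59, 13.6 and 9.87 CPM in CH. Those 3 groups did not overlap each other or any other group. The remaining groups were low, with 0.91, 2.44 and 0.386 CPM in DMSO, 1.18, 1.42 and 1.25 in 2i, and 1.13, 1.71 and 1.67 in the Esrrb floxed cells, and neighbours in that order overlapped. As these are bulk samples, fewer expressing cells and less RNA per cell cannot be told apart.

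Gbp2b, encoded beside Gbp2, had nearly the same profile. Its samples reached 42.6, 44.0 and 44.2 CPM in Esrrb null cells, 38.8, 32.0 and 34.1 CPM in Fgf2/Activin, and 4.7, 8.1 and 5.12 CPM in CH. Below them came DMSO with 1.36, 2.66 and 0.386 CPM, Esrrb floxed with 0.911, 1.4 and 1.56, and 2i with 0.418, 0.885 and 0.875. DMSO overlapped the Esrrb floxed range, while the 2i samples lay below all Esrrb floxed samples. No stretch of 75 bases or more at 95% identity was shared between the longest transcript of Gbp2, Gbp2b or Gbp3 and any other gene.

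Gbp3 and Gbp7 were also highest in Fgf2/Activin and Esrrb null cells, with CH next, but at lower levels. Gbp3 had 7.19, 8.59 and 7.72 CPM in Fgf2/Activin and 7.96, 8.33 and 8.12 CPM in Esrrb null cells, which overlapped, against 0.715, 1.08 and 0.879 CPM in CH. In DMSO, 2i and Esrrb floxed cells it lay between 0.0535 and 0.677 CPM, that is, between 2 and 15 counts per sample. Gbp7 had 7.25, 5.53 and 4.66 CPM in Fgf2/Activin, 4.7, 4.75 and 5.44 CPM in Esrrb null cells and 2.52, 1.8 and 1.72 CPM in CH. In DMSO, 2i and Esrrb floxed cells it lay between 0.155 and 0.417 CPM, with 3 to 14 counts per sample. A total of 11.35% of the exon length of Gbp7 overlaps Gm43802 on the same strand, and reads there cannot be assigned to one of them.

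**Figure D2:**
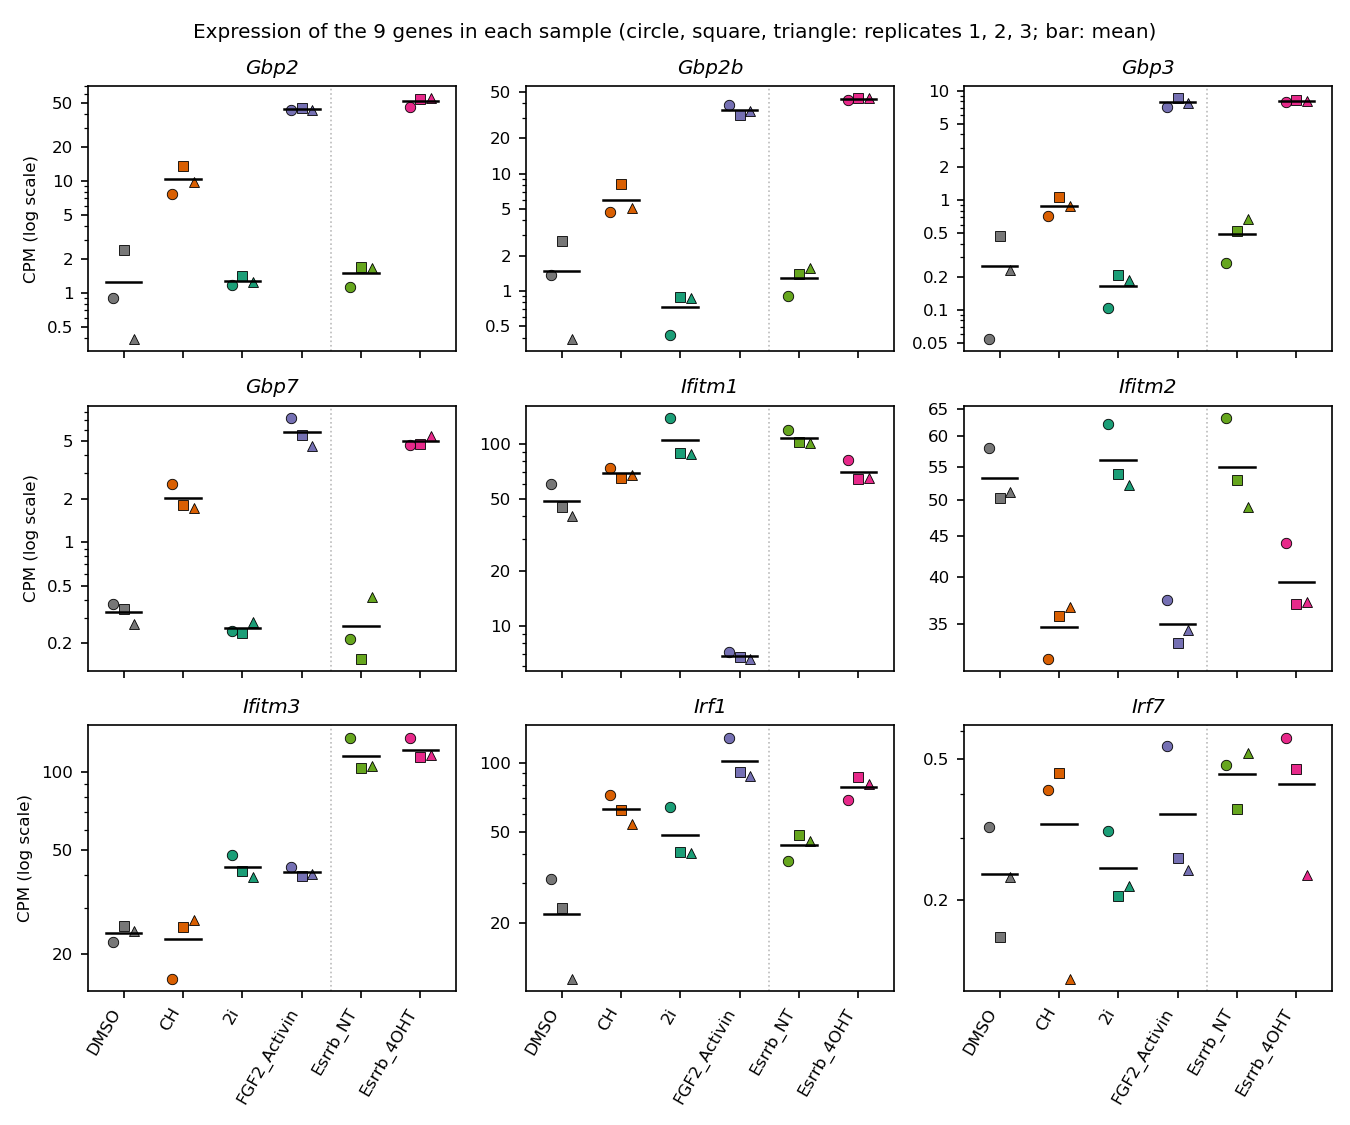
Level of each of the 9 genes in CPM on a log axis (each panel has its own range) for the 3 samples of each group, with symbols for replicates 1 to 3, a bar at the group mean, and a dotted line between wild-type and Esrrb fl/fl cells (Esrrb_NT marks floxed and Esrrb_4OHT null cells). All 4 Gbp genes are highest in Fgf2/Activin and Esrrb null cells, at between 42.8 and 55.0 CPM for Gbp2, while Ifitm1 is lowest in Fgf2/Activin, at 6.54 to 7.19 CPM.

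Per kilobase of exon, which allows genes to be compared, Gbp2 was the most abundant of the 4 Gbp genes in Esrrb null cells (20.6 ± 2.0 CPM per kb, SD, n = 3), ahead of Gbp2b (15.4 ± 0.31), Gbp3 (2.49 ± 0.0558) and Gbp7 (0.884 ± 0.074). The order was the same in Fgf2/Activin, with 17.3 ± 0.475, 12.4 ± 1.24, 2.4 ± 0.216 and 1.04 ± 0.234 CPM per kb (SD, n = 3 each). In CH, Gbp7 had 0.358 ± 0.0787 and Gbp3 0.273 ± 0.0556 CPM per kb, and the spreads of this pair overlapped. Summed over the 4 genes, the level was 108 ± 6.31 CPM in Esrrb null and 92.2 ± 3.6 CPM in Fgf2/Activin, against 19.2 ± 4.73 CPM in CH and 3.54 ± 0.926 CPM or less in the other groups (SD, n = 3 each). Gbp2 made up 47.7% ± 1.95 of that sum in Esrrb null and 47.3% ± 2.41 in Fgf2/Activin, and Gbp2b 40.3% ± 1.59 and 37.9% ± 2.62 (SD, n = 3 each). The ranges of those shares overlapped between the groups for Gbp2 and Gbp2b. The share of Gbp7 did not overlap, at 4.26 to 4.83% in Esrrb null and 5.22 to 7.53% in Fgf2/Activin.

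The comparison of CH with DMSO asks what Gsk3 inhibition changes in 3D culture. Gbp2, Gbp2b and Gbp7 rose in CH and so did Irf1, making 4 of the 8 members tested, with none called lower, where 7.51% of all 16413 genes tested were called higher and 10.2% lower. Ifitm1 was left out of this count because the same DMSO samples served in choosing it. Gbp3 and Gbp7 were above the filter on low values in all samples of CH and Fgf2/Activin only. A call required both an adjusted p under 0.01 in edgeR's quasi-likelihood test (Benjamini-Hochberg) and a log2 fold change beyond 1 in either direction. Gbp2 was 8.2-fold higher (log2 fold change 3.04, standard error 0.45, edgeR adjusted p = 0.000285) and Gbp7 6.0-fold higher (2.58, standard error 0.26, edgeR adjusted p = 2.1e-05). Gbp2b was 4.01-fold higher (2.0, standard error 0.48, edgeR adjusted p = 0.00585). This call of Gbp2b was lost in edgeR without DMSO replicate 1 (adjusted p = 0.0173), CH replicate 2 (0.0251) or CH replicate 3 (0.0112), and with only the 6 samples compared (0.041). Gbp3, with a log2 fold change of 1.84 (standard error 0.49), missed the threshold (edgeR adjusted p = 0.0105). It passed when the replicate number was fitted as a block (edgeR adjusted p = 0.00172), without replicate 1 of every group (0.00227) and without DMSO replicate 2 (0.00173). The DMSO samples were uneven for these genes, as replicate 2 had 78 counts of Gbp2 and replicate 3 had 10. Without DMSO replicate 2 the log2 fold change was 3.94 for Gbp2, 2.71 for Gbp2b and 2.73 for Gbp3.

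Gbp2, Gbp2b and Gbp7 were lower again where PD0325901 had been added to CHIR99021. In 2i, Gbp2 was 8.04-fold lower than in CH (log2 fold change -3.01, standard error 0.45, edgeR adjusted p = 0.00238), Gbp2b 8.13-fold lower (-3.02, standard error 0.51, edgeR adjusted p = 0.00493) and Gbp7 7.83-fold lower (-2.97, standard error 0.27, edgeR adjusted p = 0.000203). These 3 of the 9 members were called lower and none higher, where 1.67% of all genes tested were called lower and 0.317% higher. The groups did not overlap for any of the 4 Gbp genes, and the share of all genes without overlap was not counted. Gbp3 missed the threshold at a log2 fold change of -2.38 (standard error 0.51, edgeR adjusted p = 0.0175) and passed with the replicate block (edgeR adjusted p = 0.0027) and without replicate 1 of every group (0.000451). In edgeR, Gbp2 was not called without CH replicate 2 (adjusted p = 0.0109), 2i replicate 1 (0.0119), 2i replicate 2 (0.0151) or 2i replicate 3 (0.0166). Gbp2b was not called in edgeR without CH replicate 2 (adjusted p = 0.0208), CH replicate 3 (0.0108) or 2i replicates 1, 2 or 3 (0.0211, 0.0233 and 0.0235), nor with only the 6 samples compared (0.0103). Gbp7 kept its call in each of these fits.

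Between 2i, which keeps ES cells naive, and Fgf2/Activin, which moves them towards the primed state, all 4 Gbp genes were lower in 2i. Gbp2 was 33.7-fold lower (log2 fold change -5.08, standard error 0.47, edgeR adjusted p = 6.67e-06), Gbp2b 47.4-fold (-5.57, standard error 0.54, edgeR adjusted p = 9.37e-06), Gbp3 45.4-fold (-5.51, standard error 0.5, edgeR adjusted p = 5.42e-06) and Gbp7 22.5-fold (-4.49, standard error 0.27, edgeR adjusted p = 3.02e-07). They were the 4 of 8 members called lower, again without Ifitm1, where 14.4% of all genes tested were called lower and 9.13% higher, and no member was called higher. When at least 10 counts were required in every sample, Gbp3 and Gbp7 were not tested and 2 members remained called.

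The comparisons that served in choosing the genes are given as values. Between Fgf2/Activin and DMSO the fitted log2 fold change was 5.1 for Gbp2 (standard error 0.47), 4.55 for Gbp2b (0.51), 4.97 for Gbp3 (0.48) and 4.11 for Gbp7 (0.27). Between Esrrb null and Esrrb floxed cells it was 5.14 for Gbp2 (standard error 0.15), 5.1 for Gbp2b (0.14), 4.07 for Gbp3 (0.24) and 4.25 for Gbp7 (0.28). No sample of the higher group overlapped the lower group for any of the 4 genes in either comparison. As these comparisons served in choosing the set, this is a description only, and the share of all genes without overlap was not counted. Without replicate 1 of every group, the values for Gbp2, Gbp2b, Gbp3 and Gbp7 were 4.86, 4.35, 4.48 and 4.02 between Fgf2/Activin and DMSO, and 5.05, 4.93, 3.81 and 4.16 between Esrrb null and floxed cells. Of all genes tested, 0.902% were called higher and 0.347% lower in Fgf2/Activin than in DMSO, and for Esrrb null against Esrrb floxed cells the shares were 12.8% higher and 3.87% lower. Gbp3 and Gbp7 passed the filter on low values in the Esrrb fl/fl cells with all samples of the null group and not with those of the floxed group. Leaving out DMSO replicate 2, which had the highest Gbp2, Gbp2b and Gbp3 levels of its group, moved the log2 fold change between Fgf2/Activin and DMSO to 6.01 for Gbp2, 5.25 for Gbp2b and 5.86 for Gbp3.

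**Figure D3:**
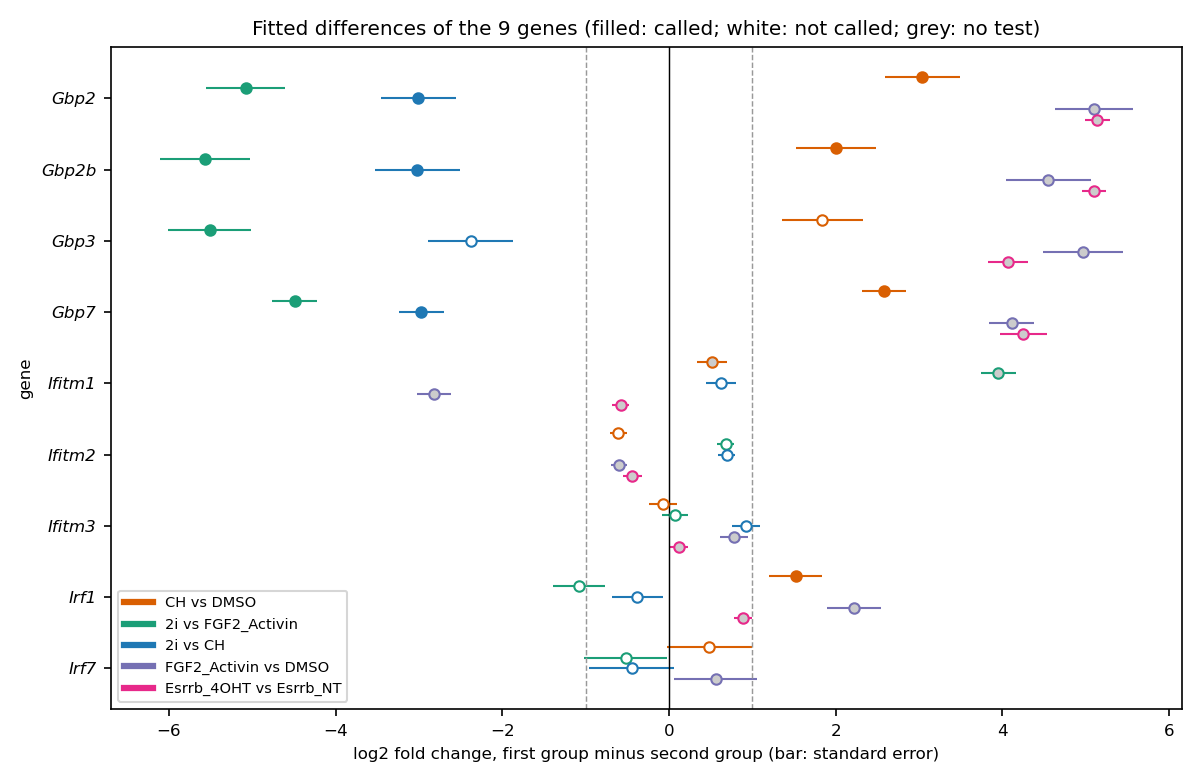
Fitted log2 fold changes (first group minus second group, bars are standard errors) of the 9 genes in 5 comparisons (Esrrb_NT is floxed, Esrrb_4OHT null), with filled points for called genes, white points for genes not called, grey points where no test was made, and dashed lines at a log2 fold change of 1 in either direction. The Gbp genes lie beyond 1 in every comparison, whereas Ifitm2 and Ifitm3 stay within it.

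Ifitm1 had the opposite profile in Fgf2/Activin. Its samples had 7.19, 6.74 and 6.54 CPM there, the lowest of the 6 groups, against 59.8, 44.7 and 40.1 CPM in DMSO and 73.9, 65.0 and 67.2 CPM in CH. The highest levels were in 2i, with 139, 88.8 and 88.0 CPM, and in Esrrb floxed cells, with 119, 102 and 101 CPM, and these overlapped. In Esrrb null cells it had 81.5, 64.0 and 64.8 CPM, which overlapped CH and lay below every Esrrb floxed sample. Fitted log2 fold changes, without a test, were -2.82 between Fgf2/Activin and DMSO (standard error 0.2), 3.95 between 2i and Fgf2/Activin (0.21), 0.51 between CH and DMSO (0.18) and -0.58 between Esrrb null and floxed cells (0.1). Between 2i and CH, the comparison independent of its choice, Ifitm1 differed by 0.62 on the log2 scale (standard error 0.18), short of a call (edgeR adjusted p = 0.0731). A total of 36.17% of its longest transcript is shared at 95% identity or more with Gm7676, so its counts may miss or include reads of that gene. The summed level of 7 primordial germ cell genes ranged from 64.1 to 83.0 CPM in DMSO and Fgf2/Activin, from 179 to 354 CPM in CH and 2i, and from 102 to 146 CPM in the Esrrb fl/fl cells, all 7 having counts in every group. Their part in the level of Ifitm1 was not tested.

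Ifitm2 and Ifitm3 varied less. Ifitm2 had 58.1, 50.3 and 51.1 CPM in DMSO and 62.1, 53.8 and 52.2 CPM in 2i, against 31.6, 35.8 and 36.7 CPM in CH and 37.5, 33.1 and 34.4 CPM in Fgf2/Activin. Its log2 fold change was -0.61 between CH and DMSO (standard error 0.1, edgeR adjusted p = 0.000491) and 0.69 between 2i and CH (standard error 0.1, edgeR adjusted p = 0.00192), differences beyond the replicate spread that fell short of the minimum fold change. It was 0.68 between 2i and Fgf2/Activin (standard error 0.1, edgeR adjusted p = 0.000161). In the Esrrb fl/fl cells Ifitm2 ranged from 48.9 to 63.3 CPM when floxed and from 37.0 to 44.1 CPM when null. Ifitm2 counts are uncertain because 40.92% of its exon length overlaps Gm45717 on the same strand and 69.77% of its transcript is shared with 3 other genes.

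Ifitm3 was higher in every Esrrb fl/fl sample than in any wild-type sample. It ranged from 104 to 136 CPM in the Esrrb fl/fl cells, where null and floxed samples overlapped, and from 16.0 to 48.0 CPM in the wild-type cells. Line, passage and culture time cannot be told apart here. Among the wild-type cells its samples had 48.0, 41.6 and 39.6 CPM in 2i and 43.2, 39.8 and 40.6 CPM in Fgf2/Activin, above DMSO (22.1, 25.5 and 24.5 CPM) and CH (16.0, 25.4 and 26.9 CPM). Between 2i and CH the log2 fold change was 0.92 (standard error 0.17, edgeR adjusted p = 0.00709), short of the minimum fold change, and it reached 1.05 and a call without CH replicate 3 (edgeR adjusted p = 0.00747). Between CH and DMSO it was -0.07 (standard error 0.17, edgeR adjusted p = 0.763) and between 2i and Fgf2/Activin 0.07 (standard error 0.16, edgeR adjusted p = 0.753). Between Fgf2/Activin and DMSO it was 0.78 (standard error 0.17), without a test.

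The 3 Ifitm genes summed to 83.0 ± 4.28 CPM in Fgf2/Activin, 125 ± 12.8 in DMSO, 126 ± 4.59 in CH, 204 ± 38.8 in 2i, 277 ± 35.0 in Esrrb floxed and 232 ± 26.2 in Esrrb null cells (SD, n = 3 each). Their proportions shifted with the culture. Ifitm1 took 54.5% ± 5.39 of the sum in CH and 8.22% ± 0.223 in Fgf2/Activin, where Ifitm3 took 49.6% ± 0.437 (SD, n = 3 each). In DMSO, Ifitm2 took 42.5% ± 1.47 and Ifitm1 38.2% ± 4.12. Ifitm3 held 41.4% ± 1.21 in Esrrb floxed and 52.8% ± 0.661 in Esrrb null cells.

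**Figure D4:**
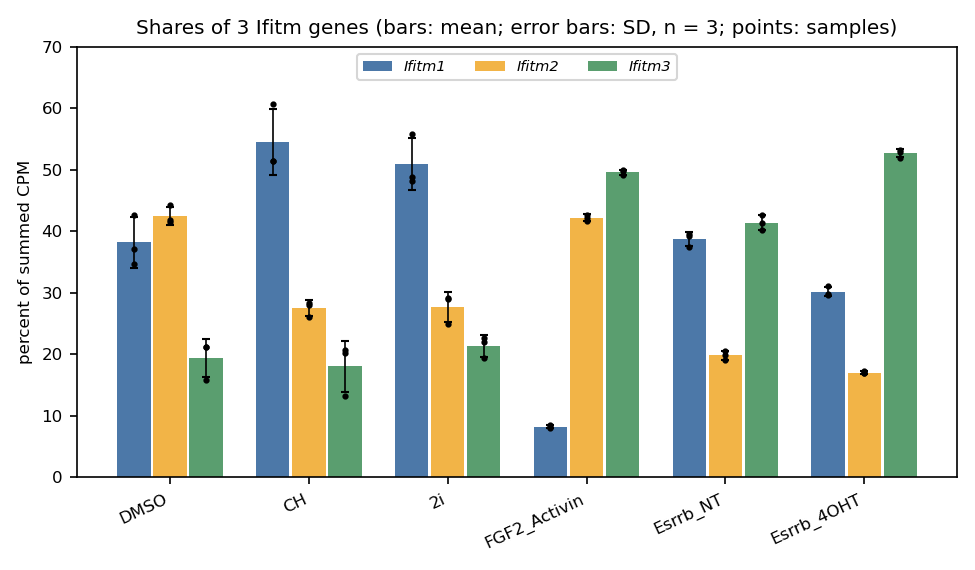
Share of the summed CPM of Ifitm1, Ifitm2 and Ifitm3 held by each gene, in percent, in the 6 groups, Esrrb_NT being floxed and Esrrb_4OHT null (bars are means, error bars SD, n = 3, points are samples). Ifitm1 holds 8.22% in Fgf2/Activin and 54.5% in CH.

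Irf1, the transcription factor whose promoter window held the GAS letters shown above, had 129, 91.1 and 87.8 CPM in Fgf2/Activin and 68.6, 86.6 and 80.9 CPM in Esrrb null cells. A total of 3.395% of its exon length overlaps Gm17334 on the other strand, and the counting did not use strand. It had 72.7, 62.2 and 53.9 CPM in CH, 64.1, 40.8 and 40.5 in 2i, and 37.3, 48.4 and 45.4 in Esrrb floxed cells. DMSO was lowest, with 31.0, 23.3 and 11.4 CPM, below every sample of the other groups. Esrrb null, CH, 2i and floxed cells formed an order in which neighbours overlapped. Irf1 rose in CH against DMSO (log2 fold change 1.52, standard error 0.32, edgeR adjusted p = 0.00271), a call lost with only the 6 samples compared (edgeR adjusted p = 0.0138). Between 2i and CH the groups overlapped (-0.38, standard error 0.31, edgeR adjusted p = 0.596). Between 2i and Fgf2/Activin the log2 fold change was -1.08 (standard error 0.31, edgeR adjusted p = 0.0133), and it passed with the replicate block (edgeR adjusted p = 0.000137), without replicate 1 of every group (2.83e-05), without 2i replicate 1 (0.00885) and with only the 6 samples compared (0.005). The fitted values in the comparisons without a test were 2.22 for Fgf2/Activin against DMSO (standard error 0.32) and 0.89 for Esrrb null against floxed cells (0.11).

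Irf7 was barely detected, with 3 to 18 counts per sample and group means between 0.237 and 0.455 CPM. All neighbouring groups in its order overlapped. It passed the filter on low values in the wild-type fit with 3 of 12 samples above the limit and did not pass it in the Esrrb fl/fl cells. None of its tested differences was called, with log2 fold changes of 0.48 between CH and DMSO (standard error 0.51, edgeR adjusted p = 0.478), -0.45 between 2i and CH (standard error 0.51, edgeR adjusted p = 0.735) and -0.52 between 2i and Fgf2/Activin (standard error 0.5, edgeR adjusted p = 0.413). With so few counts, differences of this size were not detectable.

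Genes with the most similar profile were ranked over all 18 samples, which share library preparation and replicate structure, by Pearson's r of log2(CPM + 0.5) taking the 13335 genes that averaged 1 CPM or more. For Gbp2 these were Gbp2b (r = 0.989), Gbp7 (r = 0.974) and Erap1 (r = 0.969), an aminopeptidase that trims peptides for class I MHC. For Gbp2b they were Gbp2 (r = 0.989), Gbp3 (r = 0.973) and Gbp7 (r = 0.968). Erap1 had 28.7 CPM on average in Fgf2/Activin, 40.1 in Esrrb null cells, 11.8 in CH, 4.02 in DMSO, 4.46 in 2i and 7.55 in Esrrb floxed cells. The same 3 groups were on top, which follows from its being picked by similarity to Gbp2 over these samples. For Ifitm1 they were Fbxo15 (r = 0.95), an F-box gene known from ES cells, H2afy (r = 0.948), which encodes a macroH2A histone, and Mageb16 (r = 0.938). Fbxo15 had 15.7 CPM on average in Fgf2/Activin and 145 CPM in 2i.

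The rest of the interferon pathway was examined in 10 lists of 143 other genes, of which 97 were tested in the wild-type and 90 in the Esrrb fl/fl cells. In Fgf2/Activin against DMSO 27 were called higher and none lower, and their median log2 fold change was 0.48, where that of all genes tested was -0.02. In Esrrb null against floxed cells 40 were called higher and 3 lower. Of these 40, however, 15 reached the 0.5 CPM minimum of the filter in fewer than 3 samples outside the null group and so could be tested only because they were high there. Without such genes, in either direction, 25 of 69 were called higher and 3 lower (median 0.57), and 9.5% of all genes were called higher and 3.21% lower (median -0.02). The same restriction left 25 of 92 higher in Fgf2/Activin against DMSO, 16 of 94 lower in 2i against CH, 42 of 91 lower in 2i against Fgf2/Activin, and 21 of 94 higher in CH against DMSO. In 2i against CH 16 were called lower and none higher (median -0.52, against 0.0). In 2i against Fgf2/Activin 45 were called lower and 6 higher (median -1.25, against 0.0). In CH against DMSO 22 were called higher and 12 lower (median 0.26, against 0.0). The shares of all genes called in these comparisons are those given above for the members. In edgeR, the 16 between 2i and CH became 9 without CH replicate 1, 7 without CH replicate 2, 8, 5 and 7 without 2i replicates 1, 2 and 3, and 3 with only the 6 samples compared. The 27 between Fgf2/Activin and DMSO became 15 without DMSO replicate 3 and 12 with only the 6 samples compared. Comparisons that share a group of samples are not independent of each other.

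Interferon ligands were almost absent. Of 21 ligand genes, 17 had no counts in any of the 18 samples, none passed the filter on low values, and Ifnk, the highest, had at most 0.161 CPM in a sample. Of 11 receptor and Jak-Stat genes, 10 were tested in the wild-type cells. None was called between Fgf2/Activin and DMSO, where 0.902% of all genes tested were called higher and 0.347% lower. None was called between 2i and CH either, where the shares were 0.317% and 1.67%. With shares this small, no call among 10 genes says little. In the Esrrb fl/fl cells all 11 were tested. There 4 were called higher in null than in floxed cells, namely Ifngr1, Il10rb (which reached the CPM minimum only through the null group), Jak1 and Jak2, and none lower. Without Il10rb these were 3 of 10, where 9.5% of all genes were called higher under the same restriction. The largest of these differences at a mean of at least 1 CPM was that of Jak2, the kinase of the interferon-γ receptor, which rose from 5.04 ± 0.853 to 24.4 ± 2.28 CPM (SD, n = 3 each, edgeR adjusted p = 5.36e-06). Ifngr2, a chain of the interferon-γ receptor, rose from 1.75 ± 0.32 CPM in DMSO to 14.0 ± 0.736 CPM in CH (SD, n = 3 each, edgeR adjusted p = 4.26e-07). It was also higher in 2i than in Fgf2/Activin, at 13.9 ± 1.26 against 1.91 ± 0.288 CPM (SD, n = 3 each, edgeR adjusted p = 3.02e-07). In this comparison Ifngr2 was thus high where the Gbp genes were low, whereas from DMSO to CH it rose along with Gbp2, Gbp2b and Gbp7. Of 8 inhibitors, 7 were tested in each fit. Socs1, which blocks Jak kinases, was the only 1 called in Esrrb null cells, at 6.31 ± 0.338 against 2.51 ± 0.474 CPM in floxed cells (SD, n = 3 each, edgeR adjusted p = 0.000186). As a count, 1 of 7 is near the 12.8% of all genes tested that were called higher there. Socs1 was also the only 1 of 7 called between 2i and Fgf2/Activin, at 1.6 ± 0.517 against 6.54 ± 1.2 CPM (SD, n = 3 each, edgeR adjusted p = 0.000249). This count too is near the share of all genes tested, of which 14.4% were called lower in 2i.

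Of 7 other interferon regulatory factors, 4 were tested in the wild-type cells. Irf9, a DNA-binding part of the type I interferon response, was the only 1 called between CH and DMSO, at 20.5 ± 0.425 against 9.77 ± 1.83 CPM (SD, n = 3 each, edgeR adjusted p = 0.000191). In that comparison 7.51% of all genes tested were called higher. Of 16 sensors of foreign nucleic acid and their adaptors, 14 were tested in each fit. In 2i against CH 1 was called, where 1.67% of all genes tested were called lower. This was Ifih1, which detects long double-stranded RNA and was lower in 2i (0.327 ± 0.177 against 2.56 ± 0.761 CPM, SD, n = 3 each, edgeR adjusted p = 0.00106). It was also called in CH against DMSO, where DMSO samples had at most 3 counts. Ddx58, the RNA sensor also called RIG-I, rose in CH, to 111 ± 58.3 from 18.2 ± 2.68 CPM in DMSO (SD, n = 3 each, edgeR adjusted p = 0.000583), but was lower in Esrrb null cells. It had 114 ± 10.4 CPM in Esrrb null against 268 ± 6.27 CPM in floxed cells (SD, n = 3 each, edgeR adjusted p = 4.82e-06). Ddx58 was higher in 2i than in Fgf2/Activin, at 111 ± 44.5 against 11.9 ± 0.99 CPM (SD, n = 3 each, edgeR adjusted p = 0.000117). Ikbke, a kinase that activates Irf3 and Irf7, had 4.06 ± 0.898 CPM in Esrrb null and 0.28 ± 0.0287 CPM in floxed cells (SD, n = 3 each), and reached the CPM minimum only through the null group. Tlr3, an endosomal receptor for double-stranded RNA, was lower in 2i than in Fgf2/Activin (0.403 ± 0.171 against 1.91 ± 0.247 CPM, SD, n = 3 each, edgeR adjusted p = 0.00163).

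The other Gbp genes did not all share the profile of the members. Of 7 listed, 4 were tested in the wild-type cells. Gbp9 followed the members, with 3.64 ± 0.29 CPM in Fgf2/Activin, 2.64 ± 0.173 in CH, 0.833 ± 0.255 in DMSO and 0.9 ± 0.312 in 2i (SD, n = 3 each). It rose in Esrrb null cells to 6.58 ± 1.3 CPM from 1.89 ± 0.521 CPM when floxed (SD, n = 3 each, edgeR adjusted p = 0.000223). Gbp4 rose in Fgf2/Activin to 6.07 ± 0.607 CPM from 0.551 ± 0.367 CPM in DMSO (SD, n = 3 each, edgeR adjusted p = 0.00192). In the Esrrb fl/fl cells, however, Gbp4 had 13.3 ± 2.92 CPM when null and 14.7 ± 0.613 CPM when floxed, a pair of overlapping groups that gave no call. Gbp5 and Gbp8 were low throughout. Gbp8 was lower in 2i than in Fgf2/Activin, at 0.022 ± 0.0192 against 0.512 ± 0.186 CPM, and Gbp5 higher, at 0.435 ± 0.166 against 0.032 ± 0.0329 CPM (SD, n = 3 each), and each reached the CPM minimum only through the group where it was higher. Of the immunity-related GTPases, relatives that act on the vacuoles of parasites, Irgm1 had 25.2 ± 4.02 CPM in Fgf2/Activin against 1.03 ± 0.554 CPM in DMSO (SD, n = 3 each, edgeR adjusted p = 0.000297). In CH it ranged from 10.5 to 29.8 CPM, also above DMSO (edgeR adjusted p = 3.08e-05). Igtp was lower in 2i than in Fgf2/Activin, at 0.987 ± 0.967 against 12.6 ± 4.21 CPM (SD, n = 3 each, edgeR adjusted p = 0.000981). Irgm2 had 7.74 ± 2.92 CPM in Esrrb null and 3.33 ± 0.988 CPM in floxed cells (SD, n = 3 each, edgeR adjusted p = 0.00943). Of 4 other Ifitm genes, 2 were tested in the wild-type cells. Of these, Ifitm7 was called higher in 2i than in Fgf2/Activin, at 2.67 ± 0.829 against 0.708 ± 0.326 CPM (SD, n = 3 each, edgeR adjusted p = 0.00494), the direction of Ifitm1. Of all genes tested 9.13% were called higher there.

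Type I interferon-stimulated genes were called higher in Fgf2/Activin than in DMSO for 15 of 34 tested and lower for none. Without genes that reached the CPM minimum only through the group where they were higher, these were 14 of 32. Under that restriction 0.893% of all genes were called higher. Zbp1, a sensor of Z-form nucleic acid, had 8.95 ± 1.52 CPM in Fgf2/Activin and 0.169 ± 0.123 CPM in DMSO (SD, n = 3 each, edgeR adjusted p = 2.63e-05). In Esrrb null cells 13 of 33 were called higher and 2, Oas1a and Oas1g, lower. Without the genes that reached the CPM minimum only through the null group, Oasl2 among them, 6 of 22 were called higher. Under that restriction 9.5% of all genes were called higher and 3.21% lower. Oasl2, an oligoadenylate synthetase-like protein, had 7.73 ± 1.72 CPM when null and 0.627 ± 0.231 CPM when floxed (SD, n = 3 each), whereas Oas1a fell from 25.7 ± 1.67 to 11.9 ± 3.29 CPM (SD, n = 3 each, edgeR adjusted p = 0.00104). Of the 34 genes, 22 were called lower in 2i than in Fgf2/Activin and 1, Oas1a, higher. With the same restriction 20 of 32 were called lower, against 13.7% of all genes. In 2i against CH 7 were called lower, where 1.67% of all genes tested were called lower. Among the 7 was Parp14, an ADP-ribosyltransferase, at 1.96 ± 0.407 against 4.74 ± 1.07 CPM (SD, n = 3 each, edgeR adjusted p = 0.00482). In CH against DMSO the list was split, with 9 called higher and 6 lower. With the restriction 9 of 33 (27.3%) were higher and 5 (15.2%) lower, against 7.37% and 9.98% of all genes. Ifi27 rose to 2.75 ± 0.889 from 0.289 ± 0.0494 CPM (SD, n = 3 each, edgeR adjusted p = 4.24e-05), and Oas3 fell to 0.304 ± 0.304 from 7.95 ± 5.8 CPM (SD, n = 3 each, edgeR adjusted p = 0.000527).

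Of the antigen presentation genes inducible by interferon-γ, 13 of 16 tested were called higher in Esrrb null than in floxed cells and none lower. Without those that reached the CPM minimum only through the null group, 9 of 12 were called higher, with a median log2 fold change of 1.61. Under that restriction 9.5% of all genes were called higher, with a median of -0.02. Psmb8, a subunit of the immunoproteasome, was one of those left out, with 5.2 ± 0.708 CPM when null and 0.122 ± 0.0783 CPM when floxed (SD, n = 3 each). In Fgf2/Activin Psmb8 had 10.1 ± 1.21 CPM against 0.275 ± 0.116 CPM in DMSO (SD, n = 3 each, edgeR adjusted p = 4.1e-05). In that comparison 7 of 18 were called higher and none lower, where 0.902% of all genes tested were called higher. In 2i no sample had a count of Psmb8, so that it was at least 106-fold lower there than in Fgf2/Activin, taking 3 counts per library as the floor, which covers counting error only. Between 2i and Fgf2/Activin 16 of 18 were called lower in 2i, where 14.4% of all genes tested were called lower. Between 2i and CH 7 were called lower, where 1.67% of all genes tested were called lower. Among the 7 was H2-K1, a class I MHC heavy chain, at 4.6 ± 0.389 against 14.3 ± 4.58 CPM (SD, n = 3 each, edgeR adjusted p = 0.00121). In CH against DMSO the list parted from the Gbp genes, with Erap1, Psmb8 and Tapbp called higher and 6 lower. Of all genes tested 7.51% were called higher in that comparison and 10.2% lower. Erap1 rose to 11.8 ± 1.99 from 4.02 ± 0.375 CPM (SD, n = 3 each, edgeR adjusted p = 1.4e-05), while H2-Q7, a non-classical class I gene with close relatives that can share its reads, fell to 1.44 ± 0.824 from 7.55 ± 1.4 CPM (SD, n = 3 each, edgeR adjusted p = 0.000251).

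**Figure D5:**
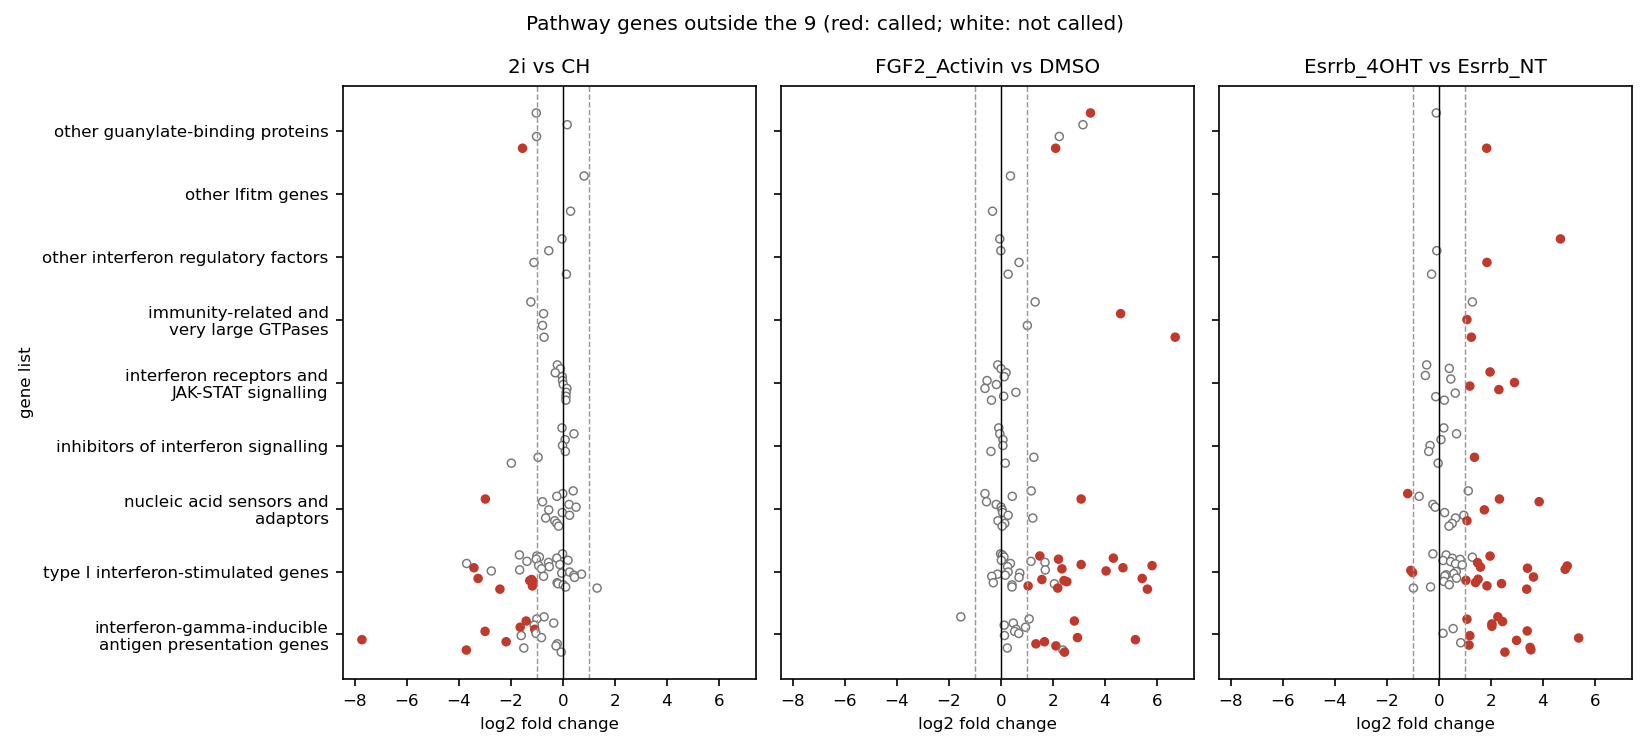
Fitted log2 fold changes of the pathway genes outside the 9 members, by list, in 3 comparisons on a common axis, Esrrb_4OHT being null and Esrrb_NT floxed (red points are called, white points are not, dashed lines mark a log2 fold change of 1 in either direction). Calls lie to the left in 2i against CH (16 lower) and to the right in Fgf2/Activin against DMSO (27 higher). In Esrrb null against floxed cells they lie mostly to the right (40 higher, 3 lower). Of the 40 and the 27, 15 and 2 reached the CPM minimum only through the group where they were higher. Of all genes tested, 1.67% were called lower in 2i, 0.902% higher in Fgf2/Activin and 12.8% higher in Esrrb null cells. The leftmost point, Psmb8, had no counts in 2i.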

How the data were processed

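RNA was measured in 18 samples, 12 of wild-type E14 ES cells and 6 of Esrrb fl/fl ES cells. Poly(A) RNA with a directional kit was sequenced, and the authors used TopHat2 (mm10) for alignment and HTSeq, without strand, for counting over Ensembl GRCm38 genes, and deposited whole-number counts that were neither normalised nor filtered. The Ensembl release is not given in the sources used here. Without strand, overlapping genes on opposite strands cannot be separated. Of the 49671 identifiers, 49326 were found in GENCODE vM21, which gave symbols, positions and exon lengths.

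Differential expression was computed with edgeR 4.0.16 (glmQLFit, glmQLFTest, TMM, filterByExpr, Benjamini-Hochberg adjustment) in R 4.3.3, with wild-type and Esrrb fl/fl samples fitted separately, and calls needed an adjusted p-value under 0.01 plus a log2 fold change beyond 1 in either direction. The code was tested on simulated data. Alternatives were RLE size factors, no filter, at least 10 counts in every sample, DESeq2 1.42.0, no minimum fold change, only the 6 samples compared, the replicate number as a block, and each sample left out. Omission of replicate 1 was added after seeing the data. The members and gene lists were chosen with earlier results of these data known. Beside the 9 members, the genes named are Esrrb, the gene with the largest called change in each direction per list and comparison at a mean of at least 1 CPM, and the 3 genes most similar to Gbp2, Gbp2b and Ifitm1. Ifnk, Gbp5, Gbp8, the marker genes, members of counts of 5 or fewer, and further values of genes already named, were added after their values were seen. Some genes that met this rule are not reported here.

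The replicate numbers come from the sample labels. Over 12238 genes, deviations of same-numbered samples from their group means correlated at 0.236 to 0.802 in every pair of groups compared. Same-numbered samples thus varied together across groups. The main fits ignored this pairing, and the replicate block was the alternative that used it. Promoter windows came from RefSeq (GRCm38.p6). Figures were drawn with matplotlib 3.10.9.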

Additional observations from a re-analysis of the deposited data

How the results depend on the processing

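Of 588 recomputed log2 fold changes of single members, 536 kept their direction and call or stayed within the replicate spread, 19 gained a call, 15 lost one, 15 moved by more than the replicate spread in the comparisons without a test, and 3 changed sign. The sign changes were those of Ifitm3, to 0.08 without replicate 1 and 0.13 without CH replicate 1 between CH and DMSO, and to -0.01 without 2i replicate 1 between 2i and Fgf2/Activin. With single samples left out, these differences of Ifitm3 ranged from -0.19 to 0.13 and from -0.01 to 0.13. Scaling by RLE size factors changed the call of no member. With the replicate block, Gbp3 (CH against DMSO and 2i against CH) and Irf1 (2i against Fgf2/Activin) gained calls, and the block changed no other call of a member. Over all genes the block gave 672 calls in place of 326 between 2i and CH and 424 in place of 205 between Fgf2/Activin and DMSO.

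With at least 10 counts in every sample, which tests fewer genes, all-gene calls were 1755 (2907 in the main fit) for CH against DMSO and 2332 (3857) for 2i against Fgf2/Activin, member calls for the latter were 2, and pathway calls were 18, 26, 8, 16 and 26 in the order of CH against DMSO, 2i against Fgf2/Activin, 2i against CH, Fgf2/Activin against DMSO and Esrrb null against floxed. Without a minimum fold change, all-gene calls were 4750 for CH against DMSO, 6193 for 2i against Fgf2/Activin and 6621 for Esrrb null against floxed, and 5 members were called between 2i and CH. DESeq2 called 597 genes between 2i and CH and 374 between Fgf2/Activin and DMSO. With only the 6 samples compared, 100 and 87 genes were called in these 2 comparisons, 2 members in CH against DMSO, and 20, 3 and 12 pathway genes in CH against DMSO, 2i against CH and Fgf2/Activin against DMSO. Leaving out single samples, with at least 2 left in each group, gave 144 to 275 genes, 1 to 3 members and 5 to 13 pathway genes between 2i and CH, and 112 to 171 genes and 15 to 21 pathway genes between Fgf2/Activin and DMSO. Without replicate 1 of every group, 768 and 499 genes, 24 and 35 pathway genes and, between 2i and CH, 4 members were called. Genes with few counts, such as Irf7 and Gbp3 in DMSO and 2i, are limited by depth.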
